A study of Drosophila melanogaster with 54 samples.

Results

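The loss of wingless (wg) was examined in sorted mesodermal cells of Drosophila melanogaster embryos. The 3 arrays titled as wg loss of function were chosen by their titles and set against the 3 arrays of wild type GFP positive cells of the same numbered set, 6 of the 54 arrays of the study. Each array (Affymetrix DrosGenome1) measured the RNA of 1 sample over 13966 probe sets, and the study holds 18 groups of 3 arrays in 3 sets. The wg-mutant embryos and the wild type embryos both carried Twi-GAL4 and UAS-GFP, which mark cells that express Twist, and both were aged to between 5.5 and 7.5 hours at 25 °C (stage 11) before the GFP positive cells were collected by fluorescence-activated cell sorting. The wg allele, and how mutant embryos were told from the other embryos, are not given in the sources used here. Set 2 also holds wild type GFP negative cells and GFP positive cells of 5 genotypes in which Twi-GAL4 drove an activated protein: Armadillo (Arm S10), Ras (Ras1 Act), both together, Pointed (Pnt P2VP16) or the Dpp receptor Thickveins (Tkv QD). The gate follows the twi promoter, so which cells were sorted can differ between genotypes. The labels do not say whether the 3 arrays of a group came from separate collections. The p-values therefore measure only the spread between arrays within groups, which may be technical. That spread is shared over the 8 groups of set 2, so for genes at which the wg arrays scatter more, the SE can understate their spread. The gene wg itself was not analysed here, so the genotype was not checked on the targeted gene.

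Wg is a secreted Wnt ligand. When it binds its Frizzled and Arrow receptors, a complex of Axin, Apc and the kinases Sgg and CkIalpha stops marking the β-catenin Armadillo for destruction, and Armadillo then acts in the nucleus with the DNA-binding factor Pangolin. In the segmented embryo, stripes of ectodermal Wg maintain engrailed and hedgehog in the neighbouring cells, and Wg also reaches the mesoderm below, where it is known to be needed for heart progenitors and for muscle founder cells that express slouch.

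The wg arrays stood apart from the other arrays of set 2 on their control probe sets. The difference between the 3′ and 5′ probe sets of the eIF-4a control, a measure of RNA integrity and labelling, was 3.31, 3.59 and 3.29 log2 units in the wg arrays, against 2.01, 2.24 and 2.15 in wild type and 1.81 to 2.37 over the other 21 arrays of the set. The same difference for actin was 1.39, 1.38 and 1.38 in the wg arrays, against 0.88, 0.88 and 1.00 in wild type, with at most 1.27 on any other array. For GAPDH the wg arrays read 1.47, 0.53 and 1.49, against 0.14, 0.14 and 0.19 in wild type, but other arrays of the set reached 1.87. The hybridization controls averaged 10.79 to 11.10 log2 units on the wg arrays, against 9.01 to 9.49 in wild type and at most 10.43 elsewhere in the set. No wg array overlapped any other array of the set on eIF-4a, actin or the hybridization controls, so these signals and the genotype cannot be told apart in this comparison. Across all probe sets the wg arrays correlated with each other at 0.872 to 0.880, the wild type arrays at 0.936 to 0.943, and arrays of the 2 groups at 0.829 to 0.851 (Pearson's r, as a description).

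**Figure D1:**
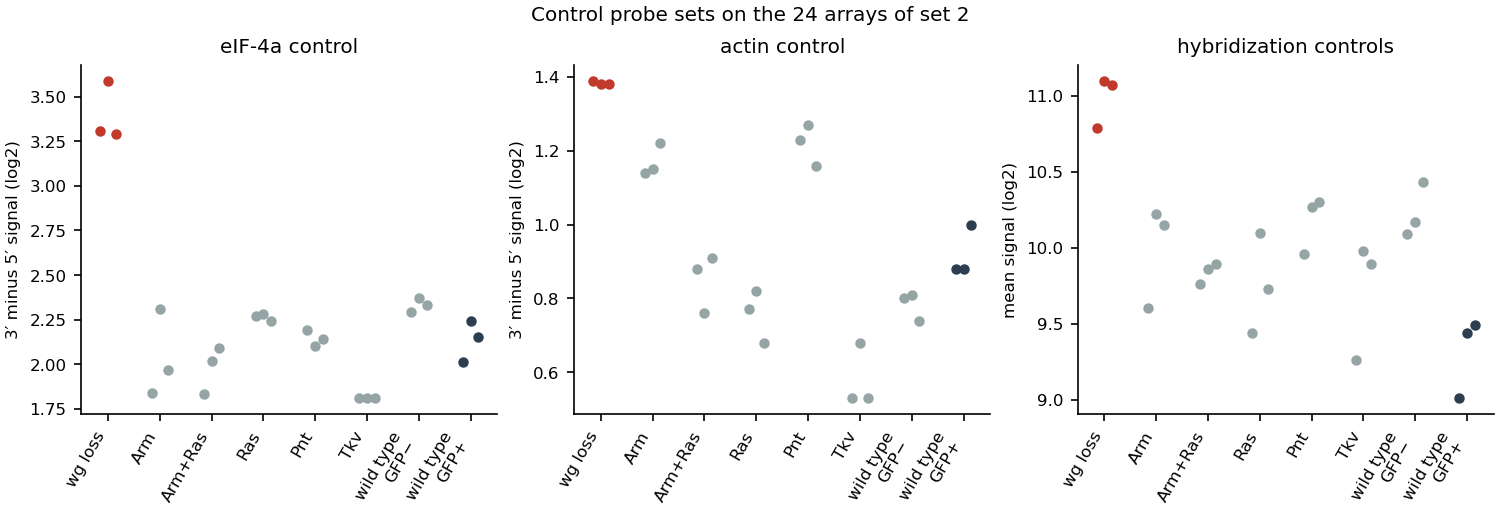
Control signals on the 24 arrays of set 2, by group on the horizontal axis, with 1 point per array: the log2 difference between 3′ and 5′ probe sets for eIF-4a (left) and actin (middle), and the mean log2 signal of the hybridization controls (right). The 3 wg arrays lie above the other 21 arrays in each panel, with eIF-4a differences of 3.29 to 3.59 against 1.81 to 2.37; the vertical axes do not start at 0.

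The first comparison asked which genes differ between wg-mutant and wild type mesoderm. Of 13966 probe sets, 3709 (26.6%) passed an adjusted p of 0.05 in limma's moderated test with Benjamini-Hochberg adjustment: 1541 (11.0%) were higher and 2168 (15.5%) were lower in the wg arrays. Differences of at least 2-fold were found for 2469 of them, 1018 higher and 1451 lower. With 1 probe set standing for each gene, 3049 of 10843 genes (28.1%) passed, 1230 (11.3%) higher and 1819 (16.8%) lower, and below "rose", "fell" and "passed" refer to this test. The counts of a gene list take the brightest probe set of each gene, also for gro, pdm2, ed and Ppn, whose probe sets disagree. Rols (0.08), nerfin-1 (0.16) and sls (-0.37) are counted as not passing, although 1 other probe set of each passed in the opposite direction. Among the brighter genes, those whose mean level lay above the median of all probe sets, 45.5% passed (16.9% higher, 28.6% lower), and the counts of the gene lists are read against these shares. The 3 wg arrays did not overlap the 3 wild type arrays at 5450 probe sets (39.0%), and 3548 of those also passed. The median log2 difference was 0.01 over all genes and -0.16 over the brighter ones. The other groups of set 2 differed from the same wild type arrays at fewer probe sets, with 338 (2.42%) for Arm with Ras, 641 (4.59%) for Ras, 966 (6.92%) for Arm, 1170 (8.38%) for Tkv, 1236 (8.85%) for Pnt and 2074 (14.9%) for wild type GFP negative cells.

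The control signals bear on how these counts are read. When the eIF-4a difference of each array was added to the fit as a covariate, 793 probe sets passed, 672 of which also passed in the same direction without it. The median standard error of the probe sets called without the covariate went up to 0.66 with it, against 0.21 without it, and 82.7% of them kept their sign. The slope of this fit rests on differences within groups (SD 0.17 in the wg arrays and 0.12 in wild type). It is carried over the gap between the group means of 3.40 and 2.13. Calls kept, lost or turned with the covariate therefore do not measure the part of RNA quality in the individual differences below, which was not tested. Of the 115 genes named by a rule, 85 passed against wild type. Of these 85, 16 passed in the same direction with the covariate, and 69 passed in every fit that left out 1 array. The rule picks mostly by calls and p-values from the same arrays, so these counts describe the named genes and not all genes.

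**Figure D2:**
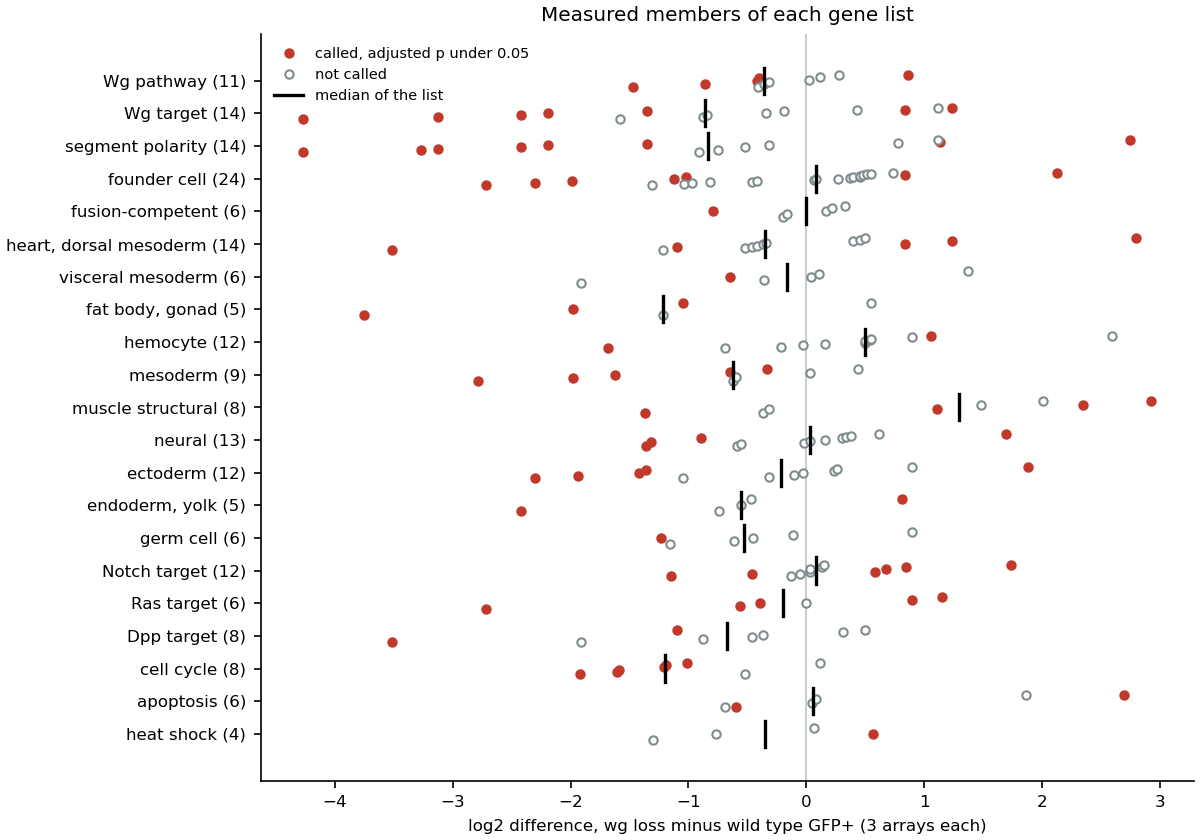
The log2 difference of each measured member of 21 gene lists, wg arrays minus wild type GFP positive arrays (3 each), on the horizontal axis, with the number of measured members beside each list name. Filled points passed an adjusted p of 0.05, open points did not, and the bar is the list's median; segment polarity genes reach from -4.27 (gsb) to 2.75 (ci), and the cell cycle list has a median of -1.20.

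Genes of the segment polarity class showed large differences in both directions. Of 14 measured members, 6 fell and 2 rose, a share of 57.1% against 28.1% of all genes and 45.5% of brighter ones. The median log2 difference was -0.83 against 0.01 over all genes, and 7 of the 14 are among the brighter genes. The paired-domain factor gooseberry (gsb), which takes part with wg in maintaining its stripe, had log2 levels of 3.26, 2.49 and 2.87 in the wg arrays, against 7.19, 7.0 and 7.23 in wild type. All 3 wg arrays lay below the other 21 arrays of the set, as did the wg arrays for 5.56% of all probe sets. The difference was -4.27 ± 0.39 (log2, SE, adjusted p = 1.86e-08), or 19.3-fold lower in the wg arrays, the third largest fall of any named gene.

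The homeobox gene engrailed (en), which marks the posterior compartment of each segment, read 2.28, 3.57 and 2.69 in the wg arrays and 5.91, 6.00 and 6.01 in wild type. The groups did not overlap, and en fell by 3.13 ± 0.31 (adjusted p = 7.07e-08). Its neighbour and paralogue invected (inv) had 1.06, 1.02 and 1.88 in the wg arrays against 5.43, 5.08 and 3.26 in wild type, where 1 array was clearly lower than the others. It differed by -3.27 ± 0.69 (adjusted p = 0.000882), and the sign turned with the eIF-4a covariate (1.12, adjusted p = 0.871, limma). Hedgehog (hh), the signal made by en-expressing cells, was at 3.94, 0.93 and 1.03 in the wg arrays and at 4.19, 4.48 and 4.48 in wild type. Array 2A of the wg group came close to the wild type arrays and the other 2 lay far below, and the difference was -2.42 ± 0.64 (adjusted p = 0.00657). Fitted on the 6 compared arrays alone, hh did not pass in limma (adjusted p = 0.0858).

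The fork head factor sloppy paired 2 (slp2) had 1.02, 3.01 and 0.17 in the wg arrays, against 3.25, 3.82 and 3.69 in wild type (difference -2.19 ± 0.72, adjusted p = 0.0279). Gooseberry-neuro (gsb-n), which adjoins gsb, had 3.96, 4.98 and 3.77, against 5.52, 5.40 and 5.83 (-1.35 ± 0.45, adjusted p = 0.0311). Both sets of 3 lay below wild type without overlap, but neither call rests on all arrays. The slp2 call ended without wg array 2A or 2C or wild type array 2B or 2C, with adjusted p up to 0.152 (limma), and that of gsb-n ended without wg array 2A or 2C or any 1 wild type array, with adjusted p up to 0.122 (limma). On the 6 compared arrays alone slp2 did not pass (adjusted p = 0.0866, limma), and without the arrays of letter A neither did (adjusted p = 0.152 and 0.0812, limma). Bulk levels such as these cannot tell fewer cells of a type from less RNA per cell.

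Cubitus interruptus (ci), the transcription factor that carries the Hedgehog signal, moved the other way. Its levels were 8.01, 8.04 and 7.92 in the wg arrays and 5.82, 4.72 and 5.18 in wild type, and the wg arrays lay above all other arrays of the set, as they did for 5.11% of all probe sets. The rise was 2.75 ± 0.20 (log2, SE, adjusted p = 5.77e-10), or 6.73-fold. Smoothened (smo), the membrane protein that relays Hedgehog to ci, was at 6.86, 7.12 and 7.04 in the wg arrays against 6.06, 5.79 and 5.76 in wild type, again above all other arrays, and rose by 1.14 ± 0.18 (adjusted p = 3.73e-05). In wild type GFP negative cells ci averaged 7.16 and smo 6.46, above their wild type GFP positive means of 5.24 and 5.87. Of the members that fell, en (7.48 against 5.97), inv (5.15 against 4.59) and slp2 (4.08 against 3.59) also averaged higher in GFP negative cells. There gsb (5.81 against 7.14), gsb-n (5.03 against 5.58) and hh (4.34 against 4.39) averaged lower. The mean of the whole list was 5.14 to 5.26 in GFP negative arrays and 4.22 to 4.79 in wild type GFP positive arrays. With the eIF-4a covariate, en (-4.22, adjusted p = 0.0144), ci (3.32, adjusted p = 0.0035) and smo (2.14, adjusted p = 0.0217) were the members that passed in limma. The Hedgehog receptor patched (ptc), whose 3 wg arrays (2.29, 2.38 and 2.25) lay below the 3 wild type arrays (3.30, 2.93 and 2.96), did not pass (-0.75 ± 0.50, adjusted p = 0.307).

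**Figure D3:**
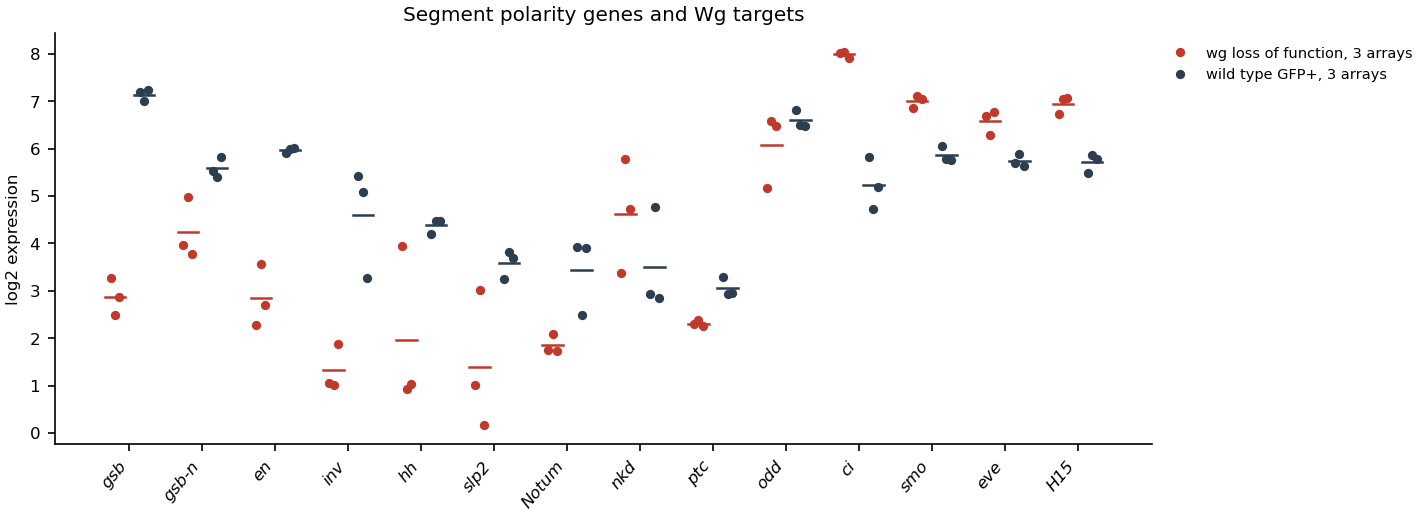
Log2 levels of 14 segment polarity genes and Wg targets, with 1 point per array and a bar at each group mean; wg arrays are at the left of each pair and wild type GFP positive arrays at the right. For gsb, en and ci the groups do not overlap, with wg means of 2.87, 2.85 and 7.99 against 7.14, 5.97 and 5.24, while the arrays of nkd overlap.

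A list of genes described as targets of Wg signalling overlaps the segment polarity list in en, hh, slp2, gsb, gsb-n and nkd. Of its 14 measured members, 9 are among the brighter genes, and the median was -0.86. Among all genes 28.1% passed, and among brighter ones 45.5%. Of the 14 members, 7 did not pass, 5 fell, all of them also on the segment polarity list, and 2 rose. Those that rose were H15, a T-box factor, which had 6.72, 7.04 and 7.07 in the wg arrays against 5.48, 5.86 and 5.79 in wild type (1.24 ± 0.22, adjusted p = 0.00014), and even skipped (eve), which had 6.68, 6.28 and 6.78 against 5.70, 5.88 and 5.64 (0.84 ± 0.17, adjusted p = 0.000743). Neither H15 nor eve overlapped between groups. Without the arrays of letter A eve did not pass (adjusted p = 0.0576, limma). Direct feedback inhibitors of the pathway gave no call. Naked cuticle (nkd) was at 3.38, 5.77 and 4.73 in the wg arrays and at 2.93, 4.76 and 2.84 in wild type, so the groups overlapped (1.12 ± 0.76, adjusted p = 0.325). A second probe set of nkd gave -0.68. Notum, a secreted enzyme that inactivates Wnt ligands, was at 1.75, 2.08 and 1.72 against 3.92, 2.48 and 3.90; the groups did not overlap, but the difference of -1.58 ± 0.67 missed the threshold (adjusted p = 0.092). The remaining members that did not pass were D (-0.84), Dll (-0.88), mid (-0.34), sr (-0.19) and Dfd (0.43).

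Of 11 measured components of the Wg pathway itself 4 fell and 1 rose, with a median of -0.36, and 10 of the 11 are among the brighter genes. The share that passed, 45.5%, was that of the brighter genes as a whole, 45.5%. Wntless (wls), which carries Wnt ligands to the cell surface, had 4.92, 5.87 and 4.67 in the wg arrays and 6.86, 6.60 and 6.40 in wild type, without overlap. It fell by 1.47 ± 0.23 (adjusted p = 4.3e-05). Slmb, the F-box protein that takes phosphorylated Armadillo to destruction, fell by 0.86 ± 0.16 (adjusted p = 0.000291), with 5.08, 5.26 and 5.04 against 6.20, 5.90 and 5.88. Slmb was also low with activated Armadillo (mean 4.86) and Pnt (4.91), against 5.13 in the wg arrays and 5.99 in wild type. It averaged 5.97 with Arm and Ras together, 5.88 with Ras and 6.67 with Tkv. The wg arrays did not differ from Arm in slmb (0.27, adjusted p = 0.284, limma). CkIalpha, the kinase that primes Armadillo for destruction, rose by 0.86 ± 0.12 (adjusted p = 1.17e-05), with 7.28, 7.52 and 7.52 against 6.64, 6.49 and 6.62.

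Smaller differences were measured for the corepressor groucho (gro, -0.42 ± 0.14, adjusted p = 0.0353) and for sugarless (sgl, -0.40 ± 0.13, adjusted p = 0.0284), an enzyme of heparan sulphate synthesis. The wg arrays ranged from 7.25 to 7.74 for sgl, against 7.65 to 8.11 in wild type, and overlapped it. A second probe set of gro gave 1.78, so no direction is given for gro, which the list's count holds among the 4 that fell. Without single arrays both calls ended, that of gro without wg array 2B or wild type array 2A or 2B (adjusted p up to 0.165, limma) and that of sgl without wg array 2A or 2B or wild type array 2A or 2B (adjusted p up to 0.177, limma). On the 6 compared arrays alone neither passed (adjusted p = 0.097 and 0.162, limma). Axn (-0.36), nej (-0.41), por (0.28), dlp (0.02), Wnt6 (-0.32) and drl (0.12) did not pass. With the eIF-4a covariate dlp was the member that passed in limma (4.76, adjusted p = 0.0237), although its levels overlapped between the groups, at 5.81, 5.66 and 5.36 in the wg arrays against 6.16, 5.50 and 5.12.

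Muscle founder cells each seed 1 muscle and switch on their own identity genes. Of 24 measured founder genes, 5 fell and 2 rose, a share of 29.2% against 28.1% over all genes and 45.5% of brighter ones. The median was 0.08, and 13 of the 24 are among the brighter genes. Slouch (slou), an identity factor of a subset of founders, was at 1.42, 2.11 and 2.33 in the wg arrays and at 4.37, 5.34 and 3.04 in wild type. The groups did not overlap, and slou fell by 2.30 ± 0.59 (adjusted p = 0.00535), to a mean of 1.95 against 2.12 in wild type GFP negative cells. Kruppel (Kr), a zinc finger identity factor, had 0.63, 1.01 and 1.91 in the wg arrays against 3.11, 2.65 and 3.75, and lay below all other arrays of the set. The Kr difference was -1.99 ± 0.63 (adjusted p = 0.0224), and it lost its call without wg array 2A or 2B or wild type array 2A or 2C, with adjusted p up to 0.0968 (limma), and without the arrays of letter A (adjusted p = 0.217, limma).

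The secreted Egfr inhibitor argos (aos) had 3.12, -0.04 and 0.63 in the wg arrays and 4.35, 3.51 and 4.01 in wild type. It fell by 2.72 ± 0.68 (adjusted p = 0.00437) with a wide spread among the wg arrays, and the sign turned with the eIF-4a covariate (0.73, adjusted p = 0.925, limma). On the 6 compared arrays alone aos did not pass (adjusted p = 0.0606, limma). The ubiquitin ligase mib2, needed to keep muscles intact, had 5.90, 6.42 and 6.19 in the wg arrays, against 7.27, 7.24 and 7.06, and fell by 1.02 ± 0.23 (adjusted p = 0.00185). For the POU factor pdm2, the brightest probe set fell by 1.12 ± 0.17 (adjusted p = 2.21e-05), while its 2 other probe sets gave 0.83 and 1.36, so no direction is given for this gene, which is counted among the 5 that fell. Knot (kn, also collier), the identity factor of a dorsolateral muscle, rose, with 6.24, 6.49 and 6.47 in the wg arrays against 4.54, 3.89 and 4.37 in wild type (2.13 ± 0.29, adjusted p = 7.13e-06). Eve, which marks dorsal founders and pericardial cells in the mesoderm, is the other founder gene that rose. In wild type, Kr (4.16 against 3.17) and eve (6.14 against 5.74) averaged higher in GFP negative than in GFP positive cells. The other founder genes that passed averaged lower there. The 17 that did not pass include nau (0.52), ap (0.55), org-1 (0.46), lbe (0.40), vg (-0.97) and Poxm (-0.82).

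Fusion-competent myoblasts join founders to build the muscle fibres. Of the 6 measured genes of these cells 1 passed, sing, a membrane protein of myoblast fusion, at 7.64, 7.78 and 7.66 in the wg arrays against 8.22, 8.60 and 8.62 (-0.79 ± 0.29, adjusted p = 0.0482). The sing call ended in limma without any 1 of wg 2A, 2B or 2C or wild type 2B or 2C, with adjusted p up to 0.136, and with the array letter as a block (adjusted p = 0.0567). The master factor lame duck (lmd) had 8.07, 7.95 and 8.04 in the wg arrays and 8.18, 8.14 and 8.22 in wild type, a difference of -0.16 ± 0.26 (adjusted p = 0.704), and sns gave 0.17 ± 0.19 (adjusted p = 0.565). The mean level of the 6 genes was 6.47 to 6.80 in the wg arrays and 6.63 to 6.90 in wild type GFP positive arrays, with 4.69 to 5.10 in wild type GFP negative arrays. In this mean the wg arrays overlapped the wild type GFP positive arrays and lay above every GFP negative array, while lmd, sing and blow taken singly were lower in all 3 wg arrays than in any wild type array.

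The mesoderm list holds general markers such as twi, sna and zfh1, and also the FGF ligands pyr and ths. Of 9 measured, 5 fell and none rose, against 28.6% of brighter genes that fell, and the median was -0.62. The mean level of the list was 4.68 to 5.10 in the wg arrays. It was 5.74 to 5.87 in wild type GFP positive arrays and 4.13 to 4.58 in wild type GFP negative arrays, so this mean lay between the 2 wild type gates. In wild type, pyr (4.73 against 2.52), ths (3.79 against 2.45) and sna (8.09 against 7.73) averaged higher in GFP negative than in GFP positive cells. The other measured members averaged lower there. Nidogen (Ndg), a basement membrane protein, had 3.29, 4.25 and 4.83 in the wg arrays and 6.79, 6.96 and 6.98 in wild type, and fell by 2.79 ± 0.23 (adjusted p = 5.02e-09). Zfh1, a zinc finger factor of gonadal mesoderm, heart and hemocyte lineages, had 4.64, 2.53 and 3.63 against 5.34, 5.62 and 5.80 (-1.98 ± 0.51, adjusted p = 0.00499). Both genes were without overlap between groups.

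Twist (twi), the mesoderm determinant whose promoter drives the GFP of the gate and which was named here for that reason after its values were seen, had 5.14, 5.89 and 3.07 in the wg arrays, against 6.22, 6.22 and 6.50 in wild type and a mean of 3.74 in GFP negative cells. All 3 wg arrays were below wild type, by very different amounts. The difference was -1.62 ± 0.55 (adjusted p = 0.0326), and without wg array 2C it was -0.80 (adjusted p = 0.245, limma). The twi call also ended without any 1 wild type array, with adjusted p up to 0.0915 (limma), on the 6 compared arrays alone (adjusted p = 0.139, limma) and without the arrays of letter A (adjusted p = 0.126, limma). Smaller falls were found for bap (-0.65 ± 0.20, adjusted p = 0.0205), a homeobox factor of visceral mesoderm, and sna (-0.33 ± 0.09, adjusted p = 0.00958). The bap call ended without wg array 2B or 2C or wild type array 2A or 2B (adjusted p up to 0.0802, limma), and that of sna ended without wg array 2A (adjusted p = 0.0714, limma) and on the 6 compared arrays alone (adjusted p = 0.115, limma). The FGF receptor htl (-0.60, adjusted p = 0.188) and the ligands pyr (-0.62) and ths (0.44) did not pass, nor did Him (0.03).

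**Figure D4:**
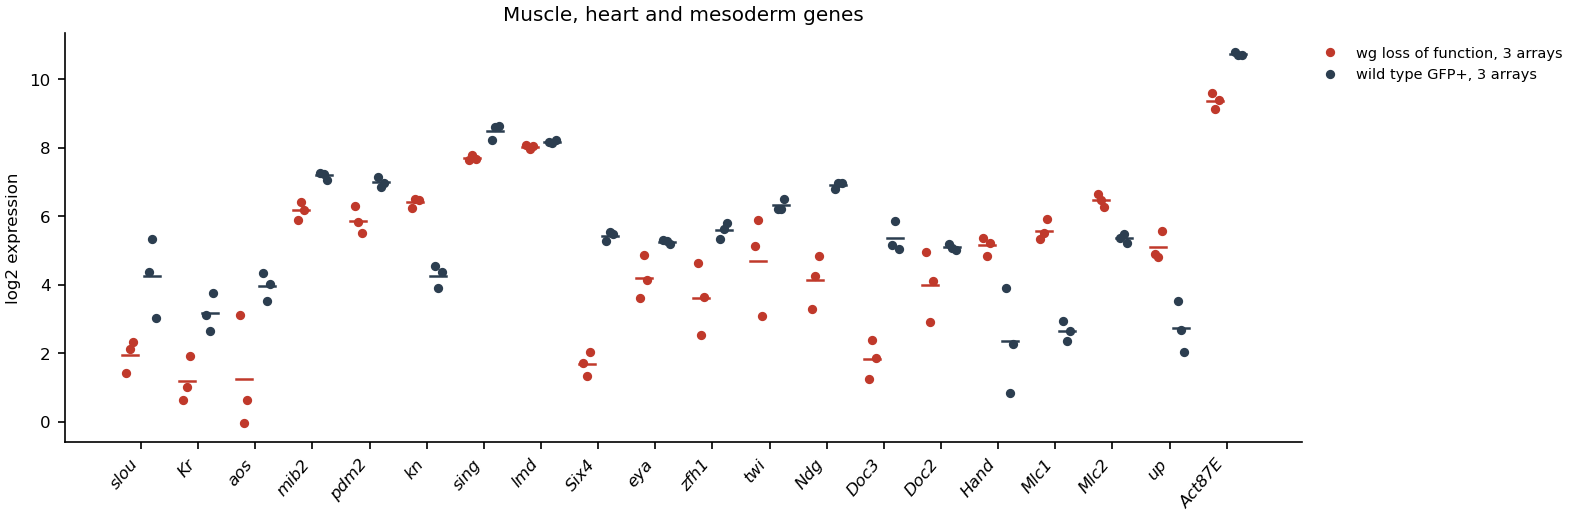
Log2 levels of genes of muscle founders, fusion-competent myoblasts, mesoderm, heart and muscle fibres, with 1 point per array and a bar at each group mean, wg arrays left of wild type GFP positive arrays. The wg arrays are lower for slou, Six4, Ndg and Doc3 and higher for kn, Hand, Mlc1 and up, and the fusion-competent factor lmd sits near 8 in both groups.

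Of 14 measured genes of the heart and dorsal mesoderm 3 rose and 2 fell, with a median of -0.35. The share of 35.7% stands against 28.1% of all genes and 45.5% of brighter ones, and 10 of the 14 are among the brighter genes. Dorsocross 3 (Doc3), a T-box factor of dorsal mesoderm that responds to Dpp, had 1.25, 2.37 and 1.86 in the wg arrays and 5.15, 5.85 and 5.05 in wild type. It fell by 3.52 ± 0.51 (adjusted p = 1.5e-05), or 11.5-fold. Its neighbour Doc2 had 4.96, 2.90 and 4.11 in the wg arrays against 5.18, 5.08 and 5.0, where 1 wg array nearly met wild type. The Doc2 fall of 1.10 ± 0.34 (adjusted p = 0.0202) ended without wg array 2B (-0.55, adjusted p = 0.156, limma) or wild type array 2A (adjusted p = 0.0617, limma) and on the 6 compared arrays alone (adjusted p = 0.193, limma), and Doc1 did not pass (-0.37, adjusted p = 0.0911).

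Hand, a bHLH factor of the heart, lymph gland and circular visceral muscle, rose. It had 5.37, 4.85 and 5.21 in the wg arrays and 3.91, 0.83 and 2.28 in wild type, where the spread was wide (2.80 ± 0.62, adjusted p = 0.00154). H15 and eve, given above, were the other members that rose. Of the 8 measured genes of the Dpp response, 2 fell (Doc3 and Doc2) and none rose, a share of 25.0%. Among all genes 16.8% fell and among brighter ones 28.6%, and 5 of the 8 are among the brighter genes. Dad (0.31), pnr (-0.46) and ush (0.50) did not pass.

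Among 5 measured genes of fat body and gonadal mesoderm, 3 fell and none rose, against 16.8% of all genes and 28.6% of brighter ones that fell. Of the 5, 4 are among the brighter genes. Six4, a homeobox factor of somatic gonad and fat body precursors, had 1.70, 1.33 and 2.02 in the wg arrays and 5.28, 5.53 and 5.49 in wild type, against a mean of 1.83 in wild type GFP negative cells. Six4 fell by 3.75 ± 0.59 (adjusted p = 4.11e-05), or 13.4-fold, to a mean of 1.68 in the wg arrays. Its partner eya had 3.60, 4.86 and 4.13 in the wg arrays against 5.30, 5.26 and 5.20 (-1.05 ± 0.25, adjusted p = 0.00301), and zfh1 is the third. The eya call ended on the 6 compared arrays alone (adjusted p = 0.0887, limma) and without the arrays of letter A (adjusted p = 0.155, limma). The GATA factor srp did not pass (0.55, adjusted p = 0.132). Of 6 visceral mesoderm genes, bap was the one that passed, and bin (-0.36), jeb (0.04), HLH54F (0.11) and Alk (1.37) did not.

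Muscle fibre genes, which are normally switched on strongly only after stage 11, had the highest list median, 1.30. Of 8 measured, 3 rose and 1 fell, and 3 of the 8 are among the brighter genes. Among all genes 28.1% passed and 11.3% rose, and among brighter ones 45.5% passed and 16.9% rose. The essential myosin light chain Mlc1 had 5.33, 5.50 and 5.91 in the wg arrays and 2.94, 2.34 and 2.65 in wild type. It rose by 2.93 ± 0.37 (adjusted p = 2.41e-06), or 7.64-fold, and its wg arrays lay above all others of the set. The regulatory light chain Mlc2 had 6.66, 6.47 and 6.26 against 5.36, 5.49 and 5.22 (1.11 ± 0.25, adjusted p = 0.00149), but did not pass without the arrays of letter A (adjusted p = 0.0753, limma).

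The troponin T gene up had 4.90, 4.82 and 5.56 in the wg arrays against 3.52, 2.68 and 2.04 (2.35 ± 0.71, adjusted p = 0.0172), but another of its probe sets gave -0.53, and the call ended without wg array 2C or wild type array 2C (adjusted p up to 0.0826, limma). The actin gene Act87E fell, with 9.60, 9.12 and 9.39 in the wg arrays against 10.80, 10.71 and 10.71 (-1.37 ± 0.09, adjusted p = 1.95e-10); actin genes are near copies of each other, and this probe set may read several of them. None of the 8 passed with the covariate. Msp300 (1.48), bt (2.01), sls (-0.37) and Tm2 (-0.32) did not pass. Other probe sets of sls, the giant filament protein of the sarcomere, gave 2.45, 0.08 and 0.54, and the one at 2.45 passed.

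Markers of other cell types that a gate could hold are given as whole lists. The 12 measured ectodermal and tracheal markers averaged 4.20 to 4.30 in the wg arrays and 4.48 to 4.90 in wild type GFP positive arrays, against 5.80 to 6.22 in GFP negative arrays, with 4 lower, 1 higher and a median of -0.21. Their share of 41.7% stands against 28.1% of all genes and 45.5% of brighter ones. The 4 that fell were fkh (-2.30 ± 0.72, adjusted p = 0.0199), vvl (-1.94 ± 0.43, adjusted p = 0.00137), btl (-1.42 ± 0.51, adjusted p = 0.0451) and tsh (-1.36 ± 0.32, adjusted p = 0.00247). The call of fkh ended without wg array 2C or wild type array 2B or 2C (adjusted p up to 0.0901, limma), and that of btl ended without any 1 wg array or wild type array 2A or 2C (adjusted p up to 0.298, limma). On the 6 compared arrays alone tsh (adjusted p = 0.0821) and btl (adjusted p = 0.157) did not pass, nor did they without the arrays of letter A (adjusted p = 0.119 and 0.423, limma). The sign of btl turned with the eIF-4a covariate (0.74, adjusted p = 0.895, limma). The brightest probe set of echinoid (ed), an adhesion protein of epithelia, had 9.39, 9.13 and 9.12 in the wg arrays against 7.61, 7.23 and 7.17 (1.88 ± 0.17, adjusted p = 1.98e-08), while its other probe sets gave -1.14, -0.30 and -0.62, so no direction is given for ed, the 1 counted as higher.

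The 13 neural markers averaged 5.24 to 5.46 in the wg arrays and 5.13 to 5.72 in wild type, against 5.98 to 6.16 in GFP negative arrays, and their median was 0.03, with 3 lower and 1 higher. Their share of 30.8% stands against 28.1% of all genes and 45.5% of brighter ones. The 3 that fell, insc (-1.36 ± 0.30, adjusted p = 0.00153), mira (-1.32 ± 0.11, adjusted p = 5.39e-09) and wor (-0.89 ± 0.23, adjusted p = 0.00503), act in the asymmetric division and identity of neuroblasts, and insc also acts in the division of muscle progenitors; a second probe set of mira gave 0.12. The insc call ended on the 6 compared arrays alone (adjusted p = 0.0558, limma) and without the arrays of letter A (adjusted p = 0.0923, limma). The proneural gene ac (1.70 ± 0.56, adjusted p = 0.0281) rose, and lost its call without wg array 2B or 2C or wild type array 2B or 2C (adjusted p up to 0.165, limma) and on the 6 compared arrays alone (adjusted p = 0.0675, limma). The neuronal marker elav gave -0.02 (adjusted p = 0.951) and the glial marker repo 0.03 (adjusted p = 0.964).

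Hemocyte markers averaged 4.93 to 5.35 in the wg arrays and 4.66 to 5.02 in wild type, against 3.60 to 4.15 in GFP negative arrays, with a median of 0.50 over 12 genes. The scavenger receptor crq rose (1.06 ± 0.30, adjusted p = 0.01), and did not pass without wild type array 2B (0.88, adjusted p = 0.0606, limma). One probe set of Ppn, a matrix protein, fell by 1.68 ± 0.25 (adjusted p = 1.67e-05) while another gave 0.99, so no direction is given for Ppn. Among 5 endoderm and yolk markers hkb fell (-2.42 ± 0.56, adjusted p = 0.0021) and fog rose (0.81 ± 0.18, adjusted p = 0.0014). Their mean level was 3.30 to 4.13 in the wg arrays, against 4.06 to 4.69 in wild type and 3.87 to 5.03 in GFP negative arrays. The 6 germ cell markers averaged 3.23 to 3.41 in the wg arrays, against 3.60 to 4.01 in wild type and 3.74 to 4.76 in GFP negative arrays. Among them gcl alone passed (-1.23 ± 0.25, adjusted p = 0.000541), and that gene is also expressed outside germ cells. The part of other cell types in the results was not tested beyond these levels.

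Most cell cycle genes fell. Of 8 measured, all among the brighter genes, 6 fell and none rose, against 28.6% of brighter genes that fell, and the median was -1.20 against -0.16. The mean level of the 8 was 6.52 to 6.75 in the wg arrays, against 7.67 to 7.87 in wild type and 7.94 to 8.02 in GFP negative cells. The mitotic cyclin CycB had 8.52, 8.33 and 8.30 in the wg arrays and 10.05, 9.91 and 9.96 in wild type. It fell by 1.59 ± 0.09 (adjusted p = 7.74e-12), or 3.01-fold, and the wg arrays lay below all other arrays of the set.

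PCNA, the sliding clamp of DNA replication, had 7.82, 7.97 and 7.95 in the wg arrays against 9.0, 9.12 and 9.24 (-1.21 ± 0.08, adjusted p = 1.66e-10). The replicative helicase subunit Mcm5 had 5.04, 5.04 and 5.24 against 7.11, 6.99 and 6.98 (-1.92 ± 0.13, adjusted p = 3.2e-10), and fzy, which activates the anaphase-promoting complex in mitosis, had 6.82, 6.66 and 6.99 against 8.68, 8.41 and 8.22 (-1.61 ± 0.13, adjusted p = 2.97e-09). For these 3 genes too, every wg array lay below the other 21. CycB3 (-1.19 ± 0.10, adjusted p = 4.52e-09) and Mcm2 (-1.01 ± 0.18, adjusted p = 0.000168) complete the 6 that fell. CycB3 averaged 7.78 in the wg arrays, and was also low with activated Armadillo (7.89) and Pnt (7.81). It averaged 8.64 with Arm and Ras together, 9.0 with Ras and 9.35 with Tkv. The wg arrays did not differ from Arm in CycB3 (-0.11, adjusted p = 0.515, limma). CycE, which drives entry into replication, was at 4.25, 4.13 and 4.66 against 5.23, 4.90 and 4.47 and did not pass (-0.52 ± 0.29, adjusted p = 0.211), nor did fzr (0.12, adjusted p = 0.634), which acts after mitosis. With the eIF-4a covariate CycB (-1.69, adjusted p = 0.00112), PCNA (-1.51, adjusted p = 0.00109) and CycB3 (-1.22, adjusted p = 0.0325) passed in limma. Mcm5 (-0.98, adjusted p = 0.158) and fzy (-0.88, adjusted p = 0.246) did not, and the sign of Mcm2 turned (0.37, adjusted p = 0.808).

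**Figure D5:**
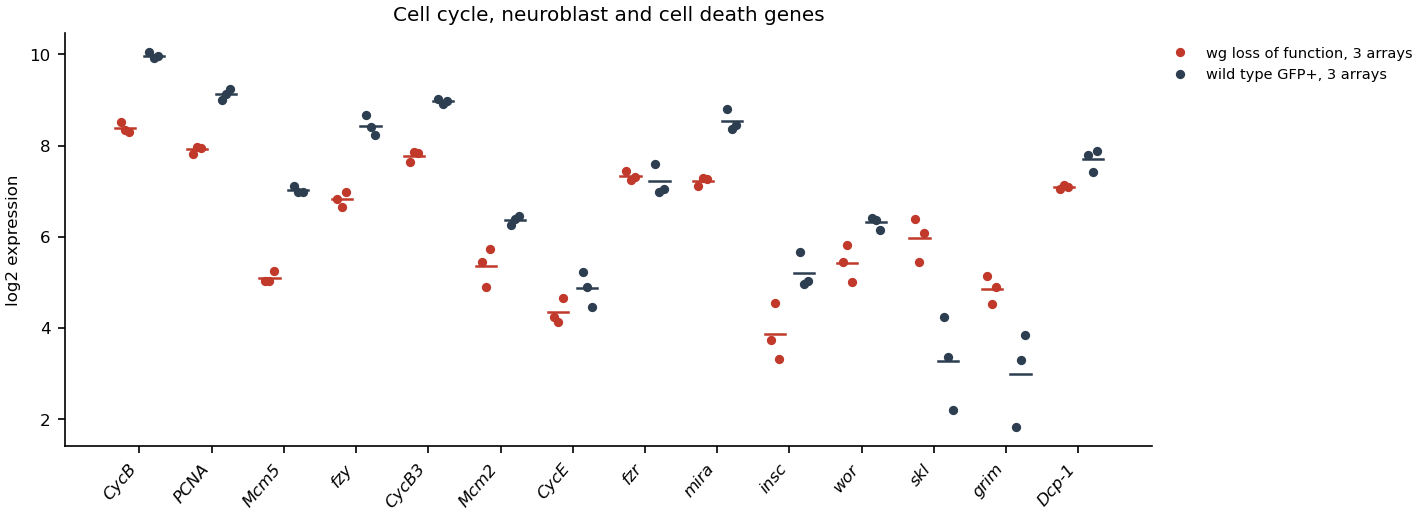
Log2 levels of 8 cell cycle genes, 3 neuroblast genes and 3 cell death genes, with 1 point per array and a bar at each group mean, wg arrays left of wild type GFP positive arrays. CycB, PCNA, Mcm5, fzy, CycB3 and Mcm2 are lower in all wg arrays, CycE and fzr overlap, and skl is higher in all wg arrays.

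Of 6 measured cell death genes, 1 rose and 1 fell, a share of 33.3% against 28.1% of all genes and 45.5% of brighter ones. The activator sickle (skl) had 6.39, 5.44 and 6.09 in the wg arrays and 4.24, 3.36 and 2.21 in wild type, without overlap (2.70 ± 0.74, adjusted p = 0.00877). Without wild type array 2C the skl difference was 2.17 (adjusted p = 0.06, limma). Its relative grim was also higher in each wg array than in any wild type array, but did not pass (1.87, adjusted p = 0.0758). The effector caspase Dcp-1 fell by 0.60 ± 0.18 (adjusted p = 0.0155), a call that ended without wild type array 2A or 2C (adjusted p up to 0.0774, limma) or without the arrays of letter A (adjusted p = 0.175, limma). Of 4 heat shock genes Hsp27 passed (0.57 ± 0.18, adjusted p = 0.0183), and not without wg array 2B or wild type array 2A (adjusted p up to 0.112, limma), nor on the 6 compared arrays alone (adjusted p = 0.1, limma).

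Enhancer of split and Bearded family genes respond to Notch, and the list of Notch targets also holds Him. Of the list's 12 measured members, all among the brighter genes, 4 rose and 2 fell. Thus 6 of 12 passed against 45.5% of brighter genes, and the median was 0.08. E(spl)mbeta-HLH, a bHLH repressor, had 8.23, 8.24 and 7.93 in the wg arrays and 9.33, 9.16 and 9.37 in wild type, with the wg arrays below all others of the set, and fell by 1.15 ± 0.10 (adjusted p = 6.72e-09). E(spl)m7-HLH fell by less (-0.46 ± 0.08, adjusted p = 0.000163). E(spl)mdelta-HLH had 8.90, 8.76 and 8.98 in the wg arrays against 8.22, 7.93 and 7.95, and rose by 0.85 ± 0.13 (adjusted p = 2.68e-05). Of the Bearded type, E(spl)m6-BFM (1.74 ± 0.32, adjusted p = 0.000271), E(spl)malpha-BFM (0.68 ± 0.11, adjusted p = 3.28e-05) and E(spl)m4-BFM (0.58 ± 0.12, adjusted p = 0.000577) rose.

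Of 6 measured Ras pathway response genes 3 fell and 2 rose, a share of 83.3% against 28.1% of all genes and 45.5% of brighter ones, and the median was -0.20. The list is short, and 4 of the 6 are among the brighter genes. The ETS repressor anterior open (aop, also Yan), which Ras signalling inactivates, had 9.24, 9.04 and 9.07 in the wg arrays against 8.23, 7.79 and 7.88 (1.15 ± 0.14, adjusted p = 1.27e-06), and also passed with the eIF-4a covariate (2.07, adjusted p = 0.00401, limma). The phosphatase Mkp3 rose by 0.90 ± 0.25 (adjusted p = 0.00813), with another probe set at 0.44, lost its call without the arrays of letter A (adjusted p = 0.122, limma) and turned negative with the covariate (-0.84, adjusted p = 0.632, limma). The ETS antagonist edl fell by 0.39 ± 0.10 (adjusted p = 0.00311) and the receptor signalling inhibitor sty fell by 0.56 ± 0.20 (adjusted p = 0.0482), and the sty call was lost without wg array 2A or 2B or wild type array 2B or 2C (adjusted p up to 0.27, limma) and on the 6 compared arrays alone (adjusted p = 0.175, limma); aos, given above, is the third that fell.

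Loss of the ligand can also be set against activation of its effector, without the wild type arrays. Between the wg arrays and those with activated Armadillo 3483 of 13966 probe sets (24.9%) passed, 1619 (11.6%) higher and 1864 (13.3%) lower in the wg arrays. This comparison and the one with wild type share the wg arrays, so their values are given side by side only. For gsb the Arm mean was 8.16, and the wg arrays were lower than Arm by 5.29 ± 0.39 (log2, adjusted p = 9.29e-10), against a difference of -4.27 from wild type. Slou averaged 6.09 with activated Armadillo, a difference of -4.13 ± 0.59 (adjusted p = 1.29e-05), against -2.30 from wild type. For both genes the order of the means was wg, then wild type, then activated Armadillo. Their levels also varied among genotypes without activated Armadillo. With Ras, Pnt and Tkv, gsb averaged 5.78, 4.51 and 4.02, against 7.14 in wild type. Slou averaged 5.56, 3.36 and 1.96 in the same genotypes, against 4.25 in wild type.

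Kn showed the opposite order, with 6.40 in the wg arrays, 3.12 with activated Armadillo and 4.27 in wild type, and its difference from Arm was 3.29 ± 0.29 (adjusted p = 1.9e-08). It averaged 6.23 with Ras, 4.69 with Pnt and 4.03 with Tkv. Six4 differed from Arm by -4.07 ± 0.59 (adjusted p = 1.58e-05), at a mean of 5.75 with Arm. En averaged 5.42 with Arm (-2.58 ± 0.31, adjusted p = 1.27e-06) and ci 5.86 (2.13 ± 0.20, adjusted p = 3.37e-08). CkIalpha, lower with Arm at 5.87, was higher in the wg arrays by 1.57 ± 0.12 (adjusted p = 2.58e-09). The kinase-like Wnt receptor drl, at 5.71 with Arm, was higher by 1.21 ± 0.14 (adjusted p = 4.76e-07), although its difference from wild type was 0.12. For inv (-1.32, adjusted p = 0.198), Kr (-1.34, adjusted p = 0.146) and H15 (0.50, adjusted p = 0.113) the difference from Arm did not pass in limma.

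The largest falls against Arm were those of Hexo2 (-5.64 ± 0.32), a hexosaminidase, and Ir64a (-5.62 ± 0.51), a chemosensory receptor gene, followed by gsb, parvin (-4.46 ± 0.25), an integrin-linked protein of muscle attachment, Nup107 (-4.44 ± 0.22) and SPARC (-4.17 ± 0.34), a collagen-binding matrix protein. Ir64a averaged 7.19 with activated Armadillo, but 1.57 in the wg arrays and 1.12 in wild type, a difference that did not pass in limma (0.46, adjusted p = 0.574). With activated Armadillo and Ras together Ir64a averaged 0.94, so the high level was seen with Arm alone. Its means with Ras, Pnt and Tkv were 1.52, 2.33 and 2.69. The largest rises against Arm were CG4565 (5.52), Uhg1 (5.05), CG34281 (4.93), CG2574 (4.77), Ekar (4.58) and CG10445 (4.10). These 4 CG genes are given by their identifiers only, as the annotation used here names no function for them.

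Against the mean of the 5 activated genotypes, 4226 of 13966 probe sets (30.3%) passed, 1864 (13.3%) higher and 2362 (16.9%) lower in the wg arrays. This comparison also shares the wg arrays with the one above. Of the 85 named genes that passed against wild type, 76 passed in the same direction here. They were picked mostly by calls and p-values that use the same wg arrays, so this count is no separate support. The difference was -3.27 for gsb, -2.30 for en, 1.85 for ci, -1.32 for CycB, 2.92 for Mlc1 and -3.61 for Ndg. Eve (0.21, adjusted p = 0.256), aop (0.07, adjusted p = 0.658) and inv (-1.30, adjusted p = 0.0718) did not pass in limma, their means in the activated genotypes lying between 6.07 and 6.69, between 8.00 and 9.65 and between 1.97 and 3.36.

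Apart from the fall of gsb, the largest differences from wild type named here were those of genes outside the lists. Hexo2 had 1.59, 1.68 and 2.81 in the wg arrays and 6.80, 6.74 and 6.72 in wild type, a difference of -4.73 ± 0.32 (adjusted p = 2.34e-10), or 26.5-fold lower. Its mean in wild type GFP negative cells was 0.73, and it lay between 5.98 and 7.66 in the 5 activated genotypes. Nup107, a scaffold protein of the nuclear pore, had 2.64, 2.67 and 2.46 in the wg arrays against 6.98, 6.88 and 7.16 (-4.42 ± 0.22, adjusted p = 1.45e-12), and was at 5.79 to 7.03 in every other group mean of the set. It also passed with the eIF-4a covariate (-4.32, adjusted p = 0.000939, limma).

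After gsb came Sec5 (-4.0), a subunit of the exocyst that tethers secretory vesicles, fliI (-3.97), an actin-severing protein of the gelsolin family, TRAM (-3.92), a protein of the secretory translocon, CG1824 (-3.92), CG7564 (-3.91), CG6005 (-3.91) and Egm (-3.91). For Nup107, Sec5, fliI, TRAM, CG6005 and Egm all wg arrays lay below the other 21 arrays. With the covariate Hexo2 did not pass (-2.95, adjusted p = 0.0903, limma), nor did Sec5 (-4.77, adjusted p = 0.137), fliI (-4.68, adjusted p = 0.0897), TRAM (-2.48, adjusted p = 0.229) or CG1824 (-0.84, adjusted p = 0.862), while Egm did (-4.41, adjusted p = 0.00278). CG7564 (0.22) and CG6005 (0.58) turned positive with it and did not pass in limma.

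The largest rise was that of Uhg1, a host gene of small nucleolar RNAs, with 6.84, 6.37 and 6.83 in the wg arrays against 0.85, 0.40 and 0.90 (5.97 ± 0.63, adjusted p = 1.6e-07), or 62.5-fold. Its mean reached 5.48 in the Tkv arrays and lay between 0.05 and 2.85 in the other 4 activated genotypes. CG4565 had 5.51, 5.64 and 5.83 in the wg arrays and 0.15, -0.13 and -0.25 in wild type (5.74 ± 0.33, adjusted p = 1.81e-11), with no group mean above 0.57 elsewhere in the set, and passed with the covariate (6.60, adjusted p = 0.000805, limma). CG2574 had 8.02, 7.54 and 7.56 against 1.39, 2.31 and 2.66 (5.59 ± 0.50, adjusted p = 1.57e-08). The others were CG34281 (4.15), Gbp2 (3.95), CG11400 (3.81), CG30195 (3.81), CG33521 (3.79), CG15734 (3.74) and Loxl2 (3.74), a member of the lysyl oxidase family that cross-links matrix proteins. CG30195 averaged 2.89 in wild type, lower than in any other group of the set. Its means were 3.86 to 6.15 in the activated genotypes and 4.53 in GFP negative cells. For CG30195 the difference from Arm did not pass (1.08, adjusted p = 0.206, limma). With the covariate CG15734 passed (5.25, adjusted p = 0.025, limma), while Uhg1 (2.59, adjusted p = 0.574) and CG2574 (3.97, adjusted p = 0.193) did not, nor did CG34281, Gbp2, CG11400, CG30195, CG33521 or Loxl2. Levels near 0 on this scale are at the lower end of the deposited values, which run from -3.08 to 13.6 in set 2, and no detection call was used, so a fold against them says little about the true ratio.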

How the data were processed

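Total RNA of sorted cells was labelled with biotin and hybridised to Affymetrix DrosGenome1 arrays. The deposited values are log2 summaries, 1 per probe set. The submitters' processing notes name affy as the tool; its version, the background correction and the normalization are not given in the sources used here. The log base was taken from the range of the values. Medians differ between the sets (4.57 to 4.62 in set 1, 4.17 to 4.27 in set 2, 3.65 to 3.72 in set 3), so only the 24 arrays of set 2 were tested together.

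After 44 control probe sets were removed, 13966 were fitted with limma 3.58.1 in R 4.3.3 (8 group means, variance trend, two-sided moderated test, Benjamini-Hochberg adjustment over all 13966, threshold 0.05). No value was filtered out, and the spread was shared over the 8 groups. Of all probe sets, 12442 have 1 gene symbol in the platform annotation, 327 several and 1197 none. A gene is represented by its brightest probe set over set 2; an alternative took the mean. Replicate n is 3 per group throughout, and the number of arrays limits the precision.

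The gene lists (175 of 233 genes measured by exact symbol), the rule for named genes and the alternatives were chosen with earlier results of these data known. Named were the called members of the Wg pathway, Wg target, segment polarity, founder and fusion-competent lists, the 10 largest changes each way without overlap between groups, the 4 lowest p-values of each other list, and the 6 largest changes each way against Arm. Other list members were named to complete a list, after their values were seen.

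Figures were drawn with matplotlib 3.10.9. No sequence was used here.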

Additional observations from a re-analysis of the deposited data

Results flagged for a closer look

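The control probe sets lie outside the main measurement, and 4 of their values stood above the wild type arrays. The mean 3′ minus 5′ difference of eIF-4a was 3.40 ± 0.17 log2 units in the wg arrays, against 2.13 ± 0.12 in wild type (SD, n = 3 each). For actin it was 1.38 ± 0.01 against 0.92 ± 0.07, and for GAPDH 1.16 ± 0.55 against 0.16 ± 0.03. The hybridization controls averaged 10.99 ± 0.17 against 9.31 ± 0.26. No test was run on these controls, and their part in the differences between genes was not tested.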

How the results depend on the processing

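For the comparison with wild type (3709 probe sets), the count stayed within 1.5 times under no variance trend, quantile normalization, only the 6 arrays compared (2831), brighter probe sets only, the arrays with the letter A left out (2847), probe set means and the GFP negative arrays left out, an alternative added after the data were seen. The eIF-4a covariate gave 793 (54.6% of them higher, against 41.5% without it), 639 against the 5 activated genotypes and 939 against Arm, with larger standard errors; only the groups compared gave 2271 against Arm, with fewer arrays in the fit. Leaving out 1 array gave 3219 to 3543 against wild type, 3688 to 4368 against the 5 activated genotypes and 3117 to 3350 against Arm. The letters A to C are shared by the groups, but same-letter deviations of the wg and wild type arrays correlated at 0.017, 0.015 and -0.006, so the letters were not taken as pairs; with the letter as a replicate block, 3852 probe sets passed against wild type, 4351 against the 5 activated genotypes and 3592 against Arm. Of the called genes of the text, 15 did not pass with only the groups compared (among them hh, aos, slp2, twi, eya and tsh) and 18 did not with the letter A left out (among them slp2, gsb-n, eve, Kr, eya, insc and Mlc2), both with fewer arrays; 5 did not pass without the variance trend, 3 with probe set means, 62 (keeping their direction) with the eIF-4a covariate and 1 each with quantile normalization (sty), the replicate block (sing) and the GFP negative arrays left out (btl). Signs turned with the eIF-4a covariate for gro (0.17), sgl (0.49), inv (1.12), aos (0.73), btl (0.74), sna (0.03), sty (0.47), Mcm2 (0.37), CG7564 (0.22), CG6005 (0.58), nej (0.61), Wnt6 (0.89), nkd (-2.83), Dfd (-0.61), por (-0.73), up (-0.22) and Mkp3 (-0.84). They turned with the mean over a gene's probe sets, which disagree, for gro (0.68), pdm2 (0.36), ed (-0.05) and dlp (-0.06), and with the letter A left out for Wnt6 (0.58). In fits without 1 array, differences of uncalled genes crossed 0: dlp (-0.22 to 0.30), Wnt6 (-0.99 to 0.24), nej (-0.81 to 0.36) and sr (-0.94 to 0.39). The cause of the turned signs was otherwise not tested. Of 81 genes with several called probe sets, 23 had calls in both directions. No detection call was used, so low levels have an unknown floor.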

Other observations

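The poly-A spike controls followed the letter of the array and not its genotype. Their mean log2 signal was 1.87 to 3.06 on the 8 arrays with the letter B in set 2, the wg and wild type arrays included, and 5.11 to 10.31 on the 16 arrays with the letters A and C.

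Probe sets were also grouped by how they differed between the wild type gates of set 1, whose arrays enter no comparison above; this grouping was added after the data were seen and gets no test. Of 426 probe sets at least 2-fold higher in the GFP positive cells of set 1, 60 (14.1%) rose and 104 (24.4%) fell in the wg arrays of set 2, with a median log2 difference of -0.06. Of 511 at least 2-fold lower there, 51 (9.98%) rose and 124 (24.3%) fell, with a median of -0.37. Over all 13966 probe sets 11.0% rose and 15.5% fell, with a median of 0.02.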
